A study of Mus musculus with 2 samples.

Results

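The clustered histone genes were described in brown fat from the interscapular depot of C57BL/6J mice that the labels give as male and 1 month old; brown fat burns lipid to make heat. Their 70 rows were taken from the 54532 genes of the table as those whose symbol starts with Hist1h, Hist2h, Hist3h or Hist4h, and were grouped by histone type into 6 genes for H1, 20 for H2A, 19 for H2B, 12 for H3 and 13 for H4. The knockout group (Ucp1-cre; rheb FL/FL) carries a Cre recombinase driven by the Ucp1 promoter, which is active in brown adipocytes, and floxed alleles of Rheb, which encodes a GTPase upstream of the growth-controlling kinase complex mTORC1. The control group is made of rheb FL/FL littermates, so both groups carry the floxed alleles. Each group is 1 library from the pooled tissue of 3 mice, and no difference below has a replicate check. The symbols chose the genes, but the family was picked with its counts in these same libraries known, so every value is a description and no test was made.

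Histones package DNA into nucleosomes: H2A, H2B, H3 and H4 form the core, and H1 binds the linker DNA between cores. Most clustered histone genes are replication-dependent, which means that dividing cells transcribe them in S phase. Their mRNAs usually end in a conserved stem-loop instead of a poly(A) tail, and the stem-loop binding protein Slbp recognises that loop. A few clustered genes also give polyadenylated mRNAs, which differentiated cells that no longer divide can contain. The libraries were made with a kit designed for polyadenylated mRNA (TruSeq RNA v2), and the labels mention mRNA purification without naming the method, and poly(A) selection recovers untailed mRNAs poorly; its part in these counts was not tested.

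The stem-loops and poly(A) signals are shown because the end of a histone mRNA bears on whether poly(A) selection can capture it. A match in an annotated transcript does not show which end the mRNA had here. The stem-loop pattern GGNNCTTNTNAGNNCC, searched on the transcript strand, was found in the annotated GENCODE M21 transcripts of 46 of the 70 genes (65.7%), against 0.540% of 21851 other protein-coding genes. A poly(A) signal, AATAAA or ATTAAA in the last 40 bases of an annotated transcript, was found for 17 of the 70 genes (24.3%), against 79.3% of the other protein-coding genes, and 14 genes held both. A gene counted where any of its annotated transcripts matched, so genes with more transcripts had more chances to match. Most of the 70 genes have 1 annotated transcript, and 3 of them are pseudogenes. The longest annotated transcript of 14 genes is under 400 bases, little more than the coding part, so an end without a match says only that these letters are not in the annotated transcript. The stem-loops of 5 of the genes with the most counts read as follows, with the pattern in capitals and up to 5 bases on either side.
Hist1h1c: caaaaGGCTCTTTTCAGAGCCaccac
Hist1h2bg: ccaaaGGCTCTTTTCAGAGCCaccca
Hist2h3c2: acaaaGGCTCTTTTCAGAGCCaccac
Hist1h4h: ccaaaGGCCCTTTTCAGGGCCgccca
Hist1h4i: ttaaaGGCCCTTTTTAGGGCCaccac
That of Hist1h1c lies at chr13:23739507-23739532, plus strand. That of Hist1h2bg lies at chr13:23571838-23571863, plus strand. That of Hist2h3c2 lies at chr3:96238480-96238505, minus strand. That of Hist1h4h lies at chr13:23531453-23531478, plus strand. That of Hist1h4i lies at chr13:22040961-22040986, minus strand. Coordinates are on mm10 (GRCm38), from GENCODE M21. The linker histone, H2B and H3 genes shown share 1 loop, and the H4 genes have a loop with a different stem. The poly(A) signals of 4 genes read as follows, with the signal in capitals.
Hist1h1c: atgcttctAATAAAaagcgtttagttttca
Hist2h2be: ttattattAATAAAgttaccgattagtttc
Hist1h4h: attttcttATTAAAagagcgaacatgtgtt
Hist1h4i: ctgtttacATTAAAagtattctatgctaa
That of Hist1h1c lies at chr13:23740334-23740363, plus strand. That of Hist2h2be lies at chr3:96223709-96223738, plus strand. That of Hist1h4h lies at chr13:23531480-23531509, plus strand. That of Hist1h4i lies at chr13:22040636-22040664, minus strand. Hist1h1c, Hist1h4h and Hist1h4i thus hold both kinds of end in 1 annotated transcript, while the annotated transcript of Hist2h2be holds the poly(A) signal alone. Hist1h2bc has 2 annotated exons, and its transcript holds neither pattern.

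The libraries held 23699316 counts over 19457 detected genes in the Rheb knockout and 21855229 counts over 20887 detected genes in the control, and mitochondrially encoded genes took 27.6% and 20.99% of them. Rheb itself had 568 counts in the knockout library and 1037 in the control library, a ratio of 0.553 (95% counting interval 0.499 to 0.613). Xist, the RNA of the inactive X chromosome in females, had 4 counts in the knockout library and 7452 in the control library, and the Y-linked gene Eif2s3y had 2653 and 0, so the control library goes against its male label, and for every difference below sex and genotype cannot be told apart. A gene was called lower or higher where its scaled count differed by at least 1.5-fold and its 95% counting interval excluded 1; of all 12973 genes that averaged 1 CPM or more (CPM, counts scaled to the size of the library), 22.9% were higher and 22.9% lower, and the shares of marker genes are to be read against these. Of the markers of brown adipocytes, all 12 were detected in both libraries, with 2 higher, 3 lower and 7 in between. Skeletal muscle markers took 0.0330% of the knockout counts and 0.350% of the control counts, and all 15 that averaged 1 CPM or more were lower in the knockout library; 1 of the 16, Tnnc2, had 0 counts in both. Neutrophil markers took 0.00533% and 0.000801%, and erythroid markers 0.557% and 0.237%. Of the other marker lists, macrophages had 8 of 12 genes higher and 1 lower, fibroblasts 7 of 12 and 1, smooth muscle and pericytes 5 of 8 and 1, Schwann cells and neurons 6 of 7 and 1, and endothelium 2 of 12 and 0, while none of 12 B and T cell genes averaged 1 CPM (73 counts in the knockout library and 121 in the control library in all). The part that any of these cell types plays in the histone counts was not tested. In bulk tissue, fewer cells of a type and less RNA per cell cannot be told apart.

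Transcripts of the clustered histone genes were lower in the Rheb knockout library. The 70 genes together had 1147 counts in the knockout library and 4782 in the control library, or 50.6 CPM (exact Poisson interval 47.8 to 53.7) against 209 CPM (203 to 215), a 4.13-fold lower sum (95% counting interval 3.87 to 4.41). That is 0.00484% of the knockout library and 0.0219% of the control library. Of the 46 genes with a read in either library, 40 had a lower scaled count in the knockout library (87.0%, against 52.3% of all genes with a read). The other 6, with a higher one, were Hist3h2a, Hist1h1e, Hist1h2ai, Hist1h1b, Hist1h2bn and Hist1h4d. By the 1.5-fold rule 21 of the 46 genes were lower and none was higher, against a background of 18.2% of all genes with a read lower and 16.8% higher. A filter of 1 CPM on the mean of the libraries kept 8 histone cluster genes, and all of these were lower, against 22.9% of all 12973 such genes lower and 22.9% higher. With plain total-count scaling, all genes split into 3695 lower and 2371 higher, in place of 2976 and 2968, and their median log2 ratio moved to -0.13. The median log2 ratio of the 8 genes was -1.77, on a scale of CPM plus a pseudocount of 0.5, beside -0.003 for all such genes. This count is partly fixed by the filter: Hist2h3c2, Hist1h2bg, Hist1h2be and Hist1h4i passed only through the control library, with under 1 CPM in the knockout library, and Hist3h2a, with more counts in the knockout library, missed it at a mean of 0.990 CPM. The 8 genes are therefore not the whole family, and their count and median are descriptions. Counting intervals cover counting error only.

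**Figure D1:**
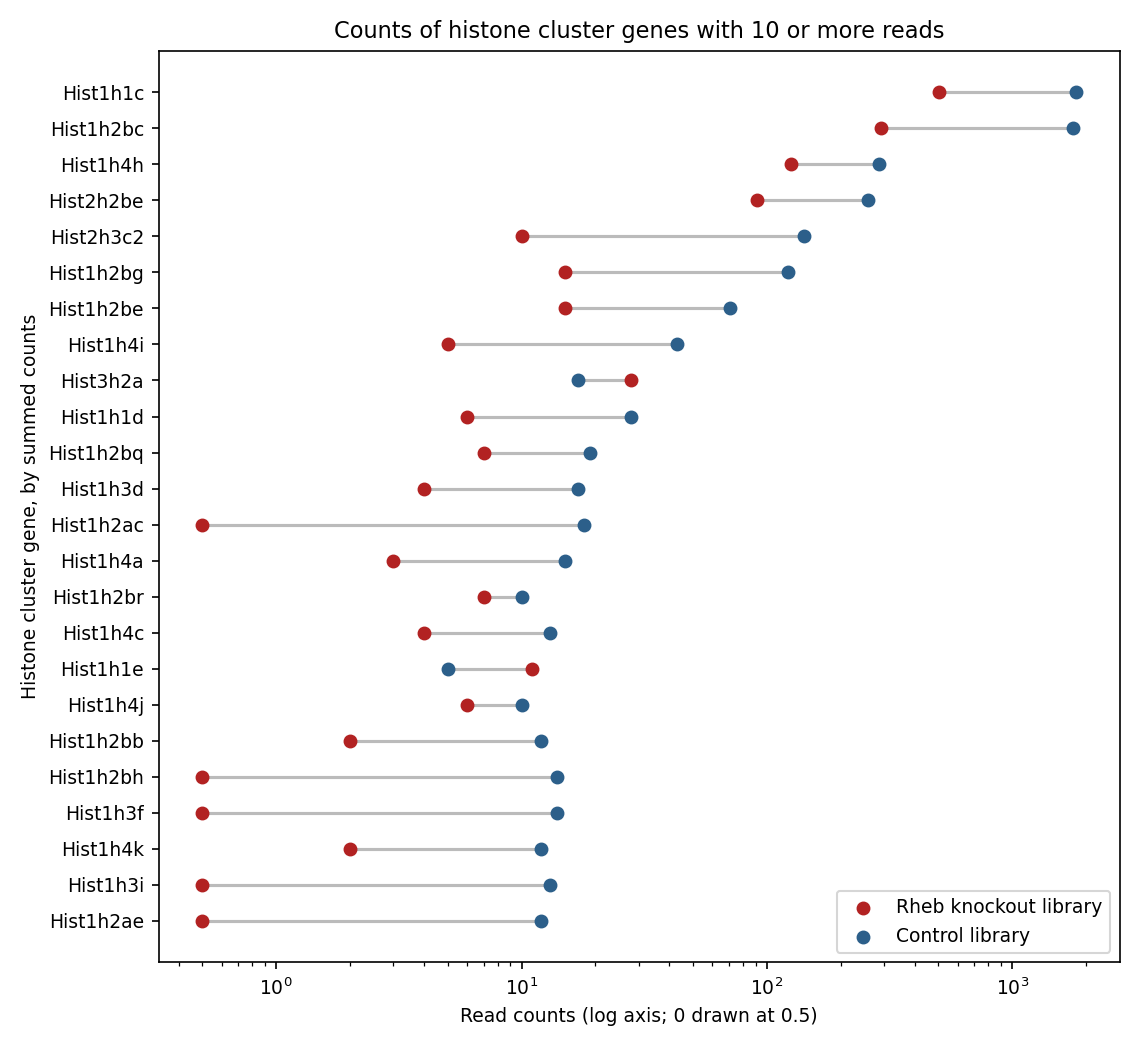
Read counts of the 24 histone cluster genes with at least 10 reads over both libraries, on a log axis with 0 drawn at 0.5; red points are the Rheb knockout library and blue points the control library. The red point lies left of the blue point for all of them except Hist3h2a and Hist1h1e.

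The linker histone gene Hist1h1c was the most abundant member. It had 502 counts (22.2 CPM) in the knockout library and 1820 counts (79.6 CPM) in the control library, 3.59-fold lower (3.25 to 3.97). It made up 43.8% of the member counts in the knockout library and 38.1% in the control library. The other linker histone genes were sparse. Hist1h1d had 6 counts in the knockout library and 28 in the control library, 4.62-fold lower (1.88 to 13.6). Hist1h1e had 11 and 5 counts, with an interval that includes no difference, and it overlaps Hist1h2be on the same strand. Hist1h1b had 3 and 0 counts and the testis linker histone gene Hist1h1t 0 and 2. Without Hist1h1c, the H1 genes summed to 20 counts in the knockout library and 35 in the control library, a ratio of 0.577 (0.316 to 1.03). The interval of that sum includes no difference; of the genes in it, Hist1h1d was called lower, while Hist1h1e and Hist1h1b had more counts in the knockout library.

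H2B genes held the largest share of the control counts of the family. The H2B sum was 19.1 CPM (17.36 to 21.01) in the knockout library and 99.6 CPM (95.6 to 103.8) in the control library, 5.21-fold lower (4.70 to 5.79). Hist1h2bc, at chr13:23684199-23692908 on the plus strand, had 292 counts in the knockout library and 1761 in the control library, 5.97-fold lower (5.27 to 6.78). It accounted for 25.5% of the member counts in the knockout library and 36.8% in the control library. Hist2h2be, on chromosome 3, had 91 and 259 counts, 2.82-fold lower (2.21 to 3.62). Hist1h2bg had 15 and 122 counts, 8.05-fold lower (4.70 to 14.8), and Hist1h2be 15 and 71 counts, 4.69-fold lower (2.66 to 8.81). The intervals of Hist2h2be and Hist1h2bc do not overlap, so H2B genes differed among themselves in the size of the difference by more than counting error. Without Hist1h2bc, the H2B sum was 141 counts in the knockout library and 517 in the control library, 3.63-fold lower (3.01 to 4.41). Hist1h2bq, with 7 and 19 counts, has 2.68% of its windows of 50 bases to itself, so its reads could belong to other genes.

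H2A genes, the partners of H2B in the nucleosome core, had few reads. They summed to 31 counts in the knockout library and 63 in the control library, 2.01-fold lower (1.29 to 3.20). Hist3h2a, on chromosome 11, made up most of the knockout sum, with 28 counts in the knockout library and 17 in the control library, a ratio of 1.66 (0.879 to 3.24) whose interval includes no difference. It overlaps Trim17 on the same strand and Gm44313 on the other, which together had 3 counts in the knockout library and 16 in the control library. Without Hist3h2a the H2A sum was 3 counts in the knockout library and 46 in the control library, 15.2-fold lower (4.88 to 76.3). Hist1h2ac had 0 counts in the knockout library and 18 in the control library, and the counting interval of the fold begins at 4.35-fold lower. Hist1h2ae had 0 and 12 counts and Hist1h2ad 0 and 6.

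H3 genes had few counts in the knockout library. Their sum was 14 counts in the knockout library and 195 in the control library, 13.8-fold lower (8.02 to 25.7). Hist2h3c2, on chromosome 3, had 10 counts in the knockout library and 142 in the control library, 14.1-fold lower (7.43 to 29.95). It has 36.5% of its windows of 50 bases to itself, so part of its reads could belong to other H3 genes. Without Hist2h3c2 alone, the H3 sum was 4 counts in the knockout library and 53 in the control library, 13.1-fold lower (4.83 to 49.9). With genes that have at least 50% unique windows, which leaves out Hist2h3c2 and other H3 genes, the H3 ratio was 0.130 (0.0334 to 0.369). Its interval then overlaps that of H2B, 0.187 (0.168 to 0.208). The order of the types by fold therefore depends on which genes are summed. Without its most abundant gene, H2A was 15.2-fold lower and H1 1.73-fold lower. Hist1h3d had 4 and 17 counts, 4.21-fold lower (1.37 to 17.2), and Hist1h3f and Hist1h3i had 0 counts in the knockout library, against 14 and 13 in the control library. All 7 H3 genes with a read had fewer in the knockout library.

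Summed over all genes of the type, H4 had a smaller fold than H2B and H3, and Hist1h4h held most of the H4 counts. The H4 sum was 147 counts in the knockout library and 391 in the control library, 2.63-fold lower (2.17 to 3.21). Hist1h4h had 125 and 286 counts, 2.27-fold lower (1.83 to 2.82), the smallest fold of the 8 genes kept by the filter. Hist1h4i had 5 and 43 counts, 8.52-fold lower (3.38 to 27.5), which does not overlap the interval of Hist1h4h. Without Hist1h4h the H4 genes summed to 22 counts in the knockout library and 105 in the control library, 4.73-fold lower (2.96 to 7.86). That interval overlaps the one of H2B without Hist1h2bc, 3.63-fold lower (3.01 to 4.41), so the order of H4 and H2B rests on these genes. Hist1h4d was the only H4 gene with more counts in the knockout library, 2 against 0.

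**Figure D2:**
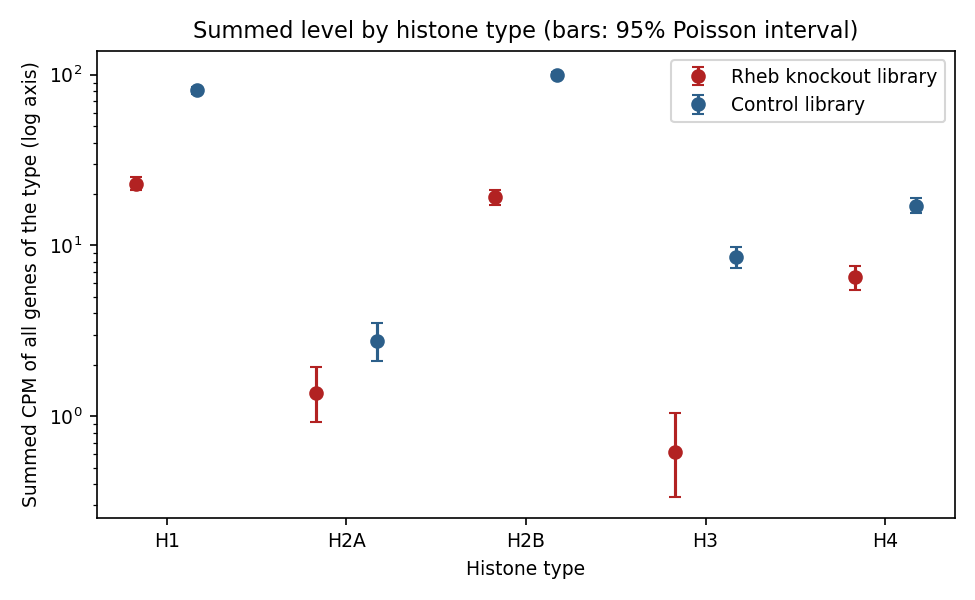
Summed CPM of all genes of each histone type on a log axis, with 95% exact Poisson intervals as bars; red is the Rheb knockout library and blue the control library. Each red point lies below the blue point of its type, by 2.01-fold for H2A up to 13.8-fold for H3, and the intervals of the libraries do not overlap.

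Levels per length put a different gene first in each library. In RPKM, the CPM divided by the gene length of the table in kilobases, Hist1h1c had 14.2 (12.99 to 15.5) in the knockout library, Hist1h4h 11.7 (9.78 to 13.99) and Hist1h2bc 11.2 (9.91 to 12.5). Hist1h4h does not differ there from either of the other genes beyond counting error. In the control library Hist1h2bc led with 66.6 (63.5 to 69.8), before Hist1h1c with 51.0 (48.7 to 53.4) and Hist1h4h with 26.6 (23.6 to 29.9). Hist1h2bg had 1.07 RPKM in the knockout library and 8.63 in the control library, Hist2h3c2 had 0.433 and 6.09, and Hist2h2be 1.53 and 4.32.

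Reads of the sparse genes pointed the same way. The 34 genes with 1 to 19 reads over both libraries had 47 counts in the knockout library and 197 in the control library, with 29 of them lower in scaled counts and 5 higher in the knockout library. Of the 46 genes with a read, 22 had none in the knockout library (47.8%, against 13.5% of all genes with a read), and 3, Hist1h1b, Hist1h2bn and Hist1h4d, had none in the control library (against 7.14% of all genes). In all, 24 members were detected in the knockout library and 43 in the control library, and 24 of the 70 had 0 counts in both. Among 14 members with 10 to 20 control counts, 5 had none in the knockout library, namely Hist1h2ac, Hist1h2bh, Hist1h3f, Hist1h3i and Hist1h2ae, against 9.59% of all genes in that range. A count of 0 in the knockout library has an exact Poisson interval that reaches 0.163 CPM, and 3 counts, the usual limit for a count of 0, are 0.132 CPM.

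**Figure D3:**
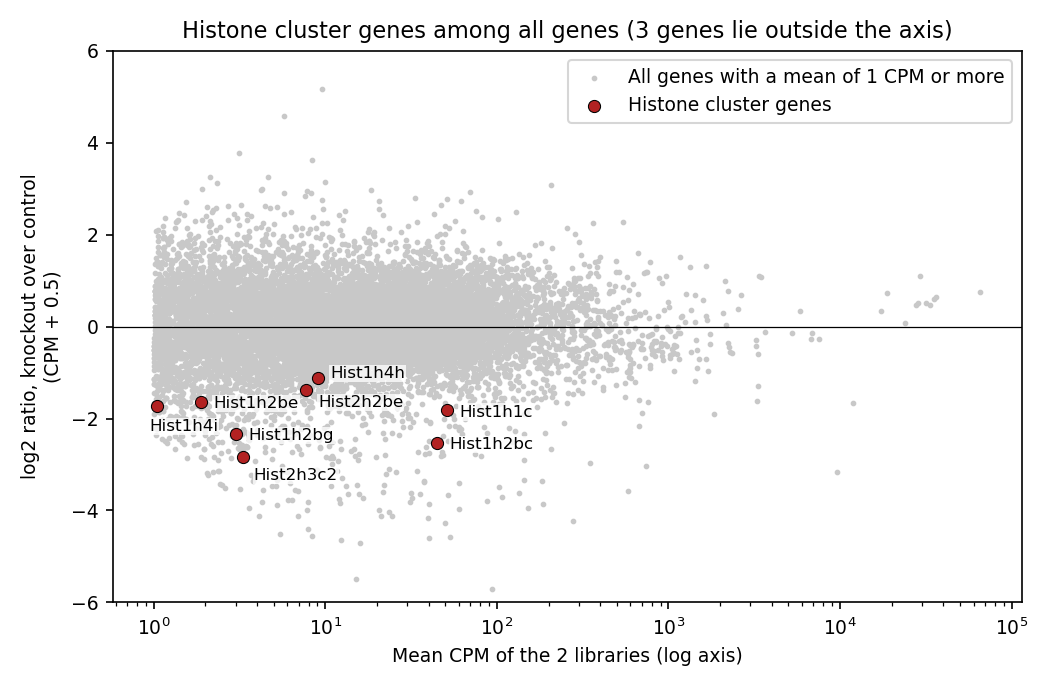
Log2 ratio of the Rheb knockout over the control library (CPM plus 0.5) against the mean CPM on a log axis, for all 12973 genes kept by the filter of 1 CPM (grey; 3 lie outside the axis) and the 8 histone cluster genes among them (red). The red points lie between -2.83 (Hist2h3c2) and -1.11 (Hist1h4h), below most grey points.

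The difference was seen on 2 chromosomes. The 56 Hist1 genes on chromosome 13, of which Hist1h2al lies apart from the others, were 4.23-fold lower in sum (3.95 to 4.54) in the knockout library, and the 10 Hist2 genes on chromosome 3 were 4.03-fold lower (3.23 to 5.06). The 3 Hist3 genes on chromosome 11 summed to 29 counts in the knockout library and 21 in the control library, a ratio of 1.39 (0.768 to 2.57), and the single Hist4 gene on chromosome 6 had 0 and 2. Within the Hist1 cluster, the 31 genes of the part from chr13:23531050 to chr13:23934851 were 4.26-fold lower (3.98 to 4.58), and the 24 genes of the part from chr13:21715763 to chr13:22043676 were 3.38-fold lower (2.32 to 5.05). Few neighbours without a histone symbol had reads inside the clusters. Between the first and last Hist1 gene, Zfp322a, a zinc finger gene, had 119 counts in the knockout library and 189 in the control library. Hfe, the gene of hereditary haemochromatosis, had 315 and 517, C230035I16Rik 53 and 59, and Abt1, which encodes an activator of basal transcription, 372 and 249. By the 1.5-fold rule Zfp322a and Hfe were lower and Abt1 higher, and Gm11335, under the filter with 0 counts in the knockout library and 6 in the control library, was lower too. In the Hist2 cluster Gm20632, which overlaps Hist2h2aa2 on the other strand, had 19 and 39 counts, 2.03-fold lower (1.15 to 3.72). Gm20634, which overlaps Hist2h2aa1 and Hist2h3c1 on the same strand, had 0 counts in the knockout library and 11 in the control library and was also lower. Of the 4 Hist1 neighbours kept by the filter, 2 were lower and 1 higher. The 1 kept in Hist2 was lower, beside 22.9% of all kept genes each way. Zfp322a and Hfe were 1.57-fold and 1.63-fold lower, smaller folds than the Hist1 sum. Trim38, under the filter with 5 counts in the knockout library and 0 in the control library, was called neither way. Gm20632 and Gm20634 overlap histone genes, and the libraries do not mark strand. Whether the difference reaches beyond the histone genes was not tested.

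H2A and H2B genes often lie head to head. Of the 70 genes, 14 pairs of an H2A and an H2B gene start within 500 bases of each other and are transcribed in opposite directions, with 172 to 305 bases between them, and both genes of 7 pairs had a read. Beside Hist1h2bc and Hist1h2bg, the genes Hist1h2ac and Hist1h2ae had none in the knockout library and 18 and 12 counts in the control library. Beside Hist2h2be, Hist2h2ac had 0 counts in the knockout library and 3 in the control library. In these 3 pairs the H2A gene had far fewer counts than its H2B partner in both libraries. The sequence that covers nearly all bases between the starts of Hist1h2ac and Hist1h2bc is shown because the pair holds the H2B gene with the most counts, and that of Hist1h1c because it leads the linker histones. Both are the 250 bases before the RefSeq start (GRCm38.p6), with matches on either strand in capitals. The motifs searched were the TATA box, as TATAAA; the CCAAT box, by those letters; the octamer bound by Oct factors, as ATTTGCAT; and the H1 box of linker histone promoters, as AAACACA. None of these motifs overlaps another in the bases shown.
Hist1h2ac: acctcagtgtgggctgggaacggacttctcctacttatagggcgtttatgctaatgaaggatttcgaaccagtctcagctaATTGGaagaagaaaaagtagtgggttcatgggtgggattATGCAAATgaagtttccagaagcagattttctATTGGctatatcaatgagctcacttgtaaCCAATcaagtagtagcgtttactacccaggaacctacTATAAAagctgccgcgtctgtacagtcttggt
Hist1h1c: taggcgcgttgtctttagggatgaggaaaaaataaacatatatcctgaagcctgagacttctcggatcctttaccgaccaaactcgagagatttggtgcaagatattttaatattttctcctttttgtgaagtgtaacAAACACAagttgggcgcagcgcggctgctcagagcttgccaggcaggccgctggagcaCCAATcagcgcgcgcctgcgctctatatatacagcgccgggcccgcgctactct
The sequence of Hist1h2ac is chr13:23683960-23684209 on the minus strand, and that of Hist1h1c is chr13:23738557-23738806 on the plus strand. The first holds the octamer, 3 CCAAT boxes and TATAAA, and the second the H1 box and 1 CCAAT box. In windows of 250 bases before and 50 after the start, CCAAT was found for 53 of 62 histone cluster genes with a RefSeq promoter (85.5%), against 37.4% of 32851 promoters. TATAAA was found for 35 (56.5%, against 13.6%), the octamer for 14 (22.6%, against 1.74%) and the H1 box for 9 (14.5%, against 7.18%). The octamer was found before 7 of 16 H2B and 7 of 18 H2A genes and before no H1, H3 or H4 gene, and the H1 box before 5 of 6 H1 genes. Both strands were searched, and the windows of head-to-head partners can overlap, so 1 match can count for both genes of a pair. The shares of genes are therefore not shares of separate promoters. A match describes the letters and is not a bound site.

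In sum, genes without an annotated poly(A) signal had a larger fold than genes with one. The 17 genes with a signal summed to 790 counts in the knockout library and 2580 in the control library, 3.23-fold lower (2.98 to 3.51). The 53 genes without one summed to 357 and 2202 counts, 6.11-fold lower (5.46 to 6.85). Each sum has a dominant gene, and both were computed again without it, a choice made after the values were seen. Without Hist1h1c the genes with a signal were 2.61-fold lower (2.28 to 3.00), and without Hist1h2bc the genes with no signal were 6.72-fold lower (5.17 to 8.86). Few genes hold these sums as well. Hist1h4h (125 and 286 counts) and Hist2h2be (91 and 259) held most of the former. Hist2h3c2 (10 and 142) and Hist1h2bg (15 and 122) held most of the control counts of the latter. Single genes did not all follow the sums. Hist1h4i, with a signal, was 8.52-fold lower (3.38 to 27.5), and Hist1h3d, without one, 4.21-fold lower (1.37 to 17.2). The 32 genes with a stem-loop and no poly(A) signal had 54 counts in the knockout library and 409 in the control library, 7.50-fold lower (5.64 to 10.2). Whether the genes without an annotated signal gave untailed mRNAs here was not tested. A list of RNAs outside the family, most without a poly(A) tail, gave little to set beside these sums, since 19 of the 26 found had 0 counts in both libraries. The 7SK RNA gene Rn7sk had 34 counts in the knockout library and 25 in the control library, a ratio of 1.37 (0.796 to 2.40). The nuclear RNA Malat1, whose 3′ end is not a poly(A) tail, was 1.72-fold lower (1.68 to 1.77) in the knockout library, and Neat1, which has both tailed and untailed forms, had a ratio of 1.70 (1.68 to 1.72).

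**Figure D4:**
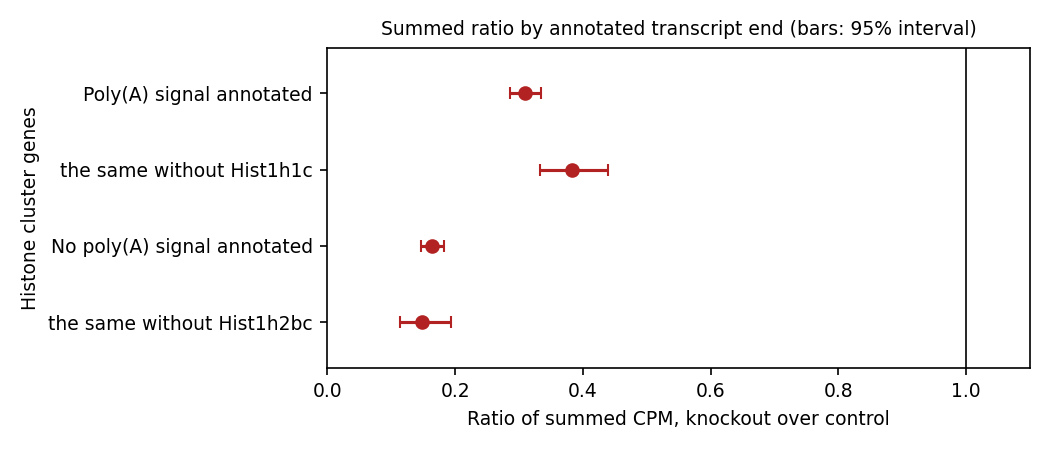
Ratio of summed CPM, Rheb knockout over control, for histone cluster genes with and without an annotated poly(A) signal, each also without its most abundant gene; bars are 95% counting intervals. The 2 upper points lie at 0.309 and 0.383 and the 2 lower points at 0.164 and 0.149, all under 1.

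Histone variant genes outside the clusters were mixed. Most of them are transcribed outside S phase too and give polyadenylated mRNAs, but the list also holds H2afx, which has a stem-loop form as well, and Cenpa, which peaks in G2. Of the 11 kept by the filter, 7 lay in between, 2 were higher and 2 lower, near the 22.9% of all genes each way, for a median log2 ratio of -0.04. H1f0, the linker histone of differentiated cells, had 1390 counts in the knockout library and 2673 in the control library, 1.90-fold lower (1.78 to 2.03). The H3.3 gene H3f3a had 626 and 1220 counts, 1.93-fold lower (1.75 to 2.13), whereas H3f3b, which encodes the same protein, had 3336 and 2162 counts, a ratio of 1.56 (1.48 to 1.65). The macroH2A gene H2afy2 had 989 and 331 counts, a ratio of 3.02 (2.66 to 3.43). Over the scalings run, 1 to 3 of these genes were higher and 2 were lower.

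Genes that process histone mRNA went both ways, with 6 of 16 lower, 1 higher and 9 in between, beside 22.9% of all kept genes each way (median -0.04; 0.02 with total counts that leave out the 20 most abundant genes). Lsm10, a subunit of the U7 particle that cuts histone pre-mRNA, had 54 counts in the knockout library and 164 in the control library, 3.01-fold lower (2.20 to 4.17). Ncbp2, the small cap-binding subunit, was 1.99-fold lower (1.77 to 2.25) and Lsm1, of the decay complex, 1.73-fold lower (1.45 to 2.07). Srrt, a cap-complex partner, had a ratio of 2.09 (1.98 to 2.21). Slbp, named after its value was seen, had 478 and 392 counts, a ratio of 1.23 (1.08 to 1.41) that is under 1.5-fold.

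The lists of histone gene transcription and of S phase had more higher than lower genes under each scaling run, beside 22.9% of all kept genes each way. Of 18 genes listed for the histone locus, its transcription factors and entry into S phase, 8 were higher and 2 lower (median 0.35); Cdt1 and its inhibitor Gmnn, which control replication licensing and not histone transcription, are 1 of the 8 and 1 of the 2. The CCAAT-binding subunit Nfya had a ratio of 2.26 (1.98 to 2.58), Cdt1, with 57 and 25 counts, 2.30 (1.42 to 3.85), and Npat, the histone locus coactivator (named after its value was seen), 1.96 (1.52 to 2.54), while Gmnn was 3.94-fold lower (3.13 to 4.99) and Sp1 2.02-fold lower (1.76 to 2.31). Ccne1, left out by the filter at 6 and 36 counts, was 5.94-fold lower (2.48 to 17.2). It was also named after its value was seen. Of 18 histone chaperones 6 were higher and 3 lower (median 0.20), and 4 and 5 with total counts, a scaling under which all genes also split towards lower. The CENP-A chaperone Hjurp had a ratio of 2.32 (2.14 to 2.52) and Nasp, the carrier of soluble H3 and H4, 1.89 (1.65 to 2.18), whereas Asf1b was 2.00-fold lower (1.37 to 2.97) and Rbbp4 1.87-fold lower (1.69 to 2.07). Of 25 genes listed for S phase and cell cycle control 10 were higher and 3 lower (median 0.26); the cell cycle inhibitor genes Cdkn1a and Cdkn1b are among the higher and the lower ones. Mki67, a marker of cycling cells, had 77 counts in the knockout library and 21 in the control library, a ratio of 3.70 (2.26 to 6.32), and the replicative helicase subunit gene Mcm7 763 and 344, a ratio of 2.24 (1.97 to 2.55). Cdkn1a had a ratio of 3.28 (3.13 to 3.44) and the DNA ligase gene Lig1 2.27 (1.58 to 3.30). Pcna, the replication clamp (named after its value was seen), had 449 and 530 counts, a ratio of 0.856 (0.753 to 0.972).

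**Figure D5:**
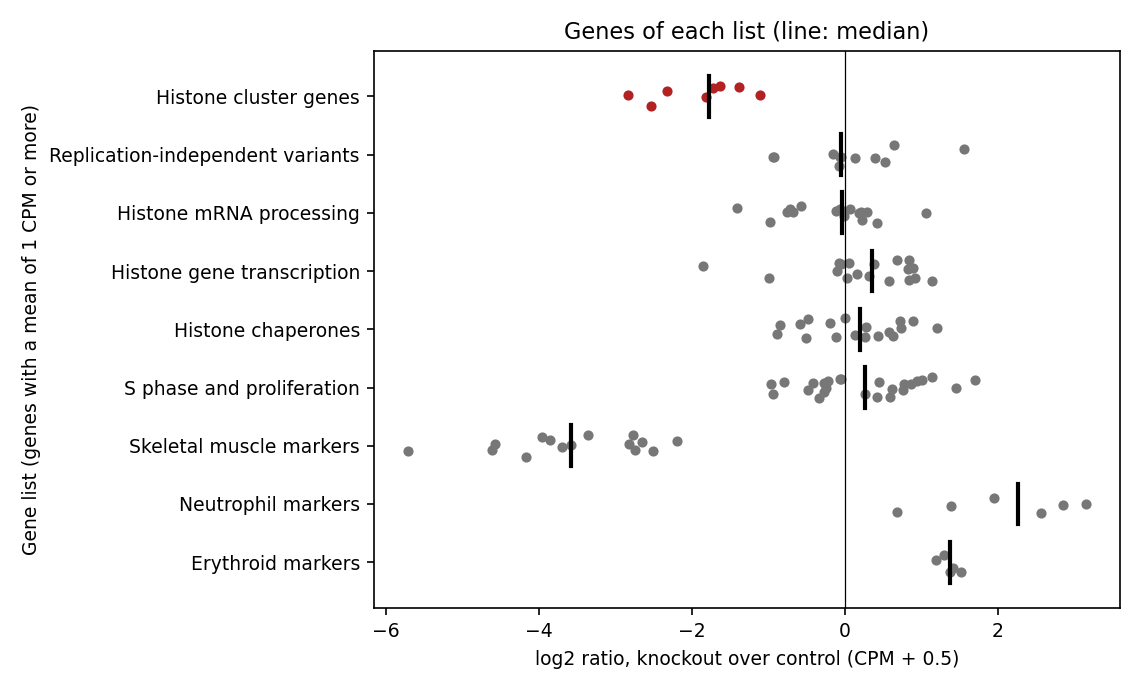
Log2 ratio of the Rheb knockout over the control library (CPM plus 0.5) for each gene kept by the filter of 1 CPM in 9 gene lists; the black line is the median of the list. The 8 histone cluster genes lie left of 0 (median -1.77), variant genes are spread around 0 (median -0.04), and skeletal muscle markers lie farther left (median -3.58).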

How the data were processed

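The values deposited by the authors are unnormalized gene counts, 1 column per pooled library. The submitters' processing notes name Trimmomatic, HISAT2, featureCounts and mm10. Their versions, the annotation release and the handling of multi-mapped reads: not given in the sources used here. The kit, TruSeq RNA v2 per the labels' protocols, does not mark strand, so reads of overlapping antisense genes cannot be told apart. Histone genes are near-identical copies: at the median, 55.0% of the windows of 50 bases of a gene with a read were in no other GENCODE M21 transcript, so single genes are less certain than sums. If multi-mapped reads were left out, the sums lack them too. Gene lengths in bases are another column of the deposited table, per the file headers.

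Counts were scaled with TMM factors (edgeR 4.0.16; R 4.3.3) to CPM. Ratios are knockout over control, without a pseudocount, with a 95% Clopper-Pearson interval, and sums have an exact Poisson interval (scipy 1.17.1). Median log2 ratios use CPM plus 0.5, which understates the change of low genes. Reads copied by PCR are not separate molecules. A gene was called lower or higher at 1.5-fold with an interval that excludes 1; a mean of 1 CPM was the filter. With 1 library per group no p-value was computed. The interval code was tested on simulated counts.

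The members and lists were chosen with earlier results of these data known. The genes named are members with at least 20 counts over both libraries, Rheb, and up to 4 genes of each list with the largest absolute log2 ratio; the marker lists are given by counts, and other genes, including members with fewer counts, were chosen after their values were seen. Gene types came from GENCODE M21, which matched 54495 of the identifiers. Protein identity was not computed. Alternatives were 5 other scalings (among them DESeq2 1.42.0 size factors), 3 filters, 2 pseudocounts, 2 folds, members with unique sequence, protein-coding members, and leaving out dominant genes.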

Additional observations from a re-analysis of the deposited data

How the results depend on the processing

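No paired analysis was possible because only 1 library stands for a group, and so none could be left out. No alternative turned a direction, and none gave a higher member. Of the 87 alternative values for counts, medians and sums, 70 stayed within the tolerance (1.5 times for counts of genes, the counting interval for the others), as did all 60 for single genes under other scalings. Total-count scaling gave a median log2 ratio of -1.87 and a summed ratio of 0.221. With no filter beyond 1 read, 21 members were lower and the median was -0.38; with a mean of 0.2 CPM, 19 and -1.10; with a mean of 5 CPM, 4 and -1.60; these filters set how many genes are counted. The median was -2.36 with a pseudocount of 0.05 and -1.30 with a pseudocount of 2. Members with at least 50% of their windows unique gave an H3 ratio of 0.130 (0.0334 to 0.369), a sum without Hist2h3c2 and other H3 genes. Leaving out the most abundant gene gave a ratio of 0.220 for all members, 0.577 for H1 (0.316 to 1.03, which includes no difference), 0.0659 for H2A, 0.275 for H2B and 0.212 for H4. For H3 it gave 0.0762 (0.0200 to 0.207), within the tolerance. Without Hist1h1c and Hist1h2bc, an alternative chosen after seeing the data, the summed ratio was 0.297. Depth limits the members outside the 8 most abundant, whose intervals are wide.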
